A study of Mus musculus with 24 samples.

Results

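The 36 genes described here mark the cells of blood vessels: 28 are genes of endothelial cells, which line the vessel, and 8 are genes of mural cells, the pericytes and smooth muscle cells wrapped around it. They were named as a set, and each was taken from the feature of the array annotated with its symbol alone. That gave 35 of the 36, since the feature of Egfl7 also carries another symbol, among 30142 genes with such a feature in all. In the brown adipose tissue (BAT) 34 members passed the filter on low signal, and in the ventromedial hypothalamus (VMH) 22 did. Slco1a4 was below it in BAT. Clec14a, Kcnj8, Mmrn2, Plvap, Tagln, Sox17, Aplnr, Sox18, Nos3, Robo4, Esam, Icam2 and Ramp2 were below it in the VMH.

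Total RNA of VMH, dissected from frozen brain sections of 100 µm, and of 20 mg of BAT was hybridised to 24 Affymetrix arrays. The mice were controls or carried a conditional knockout (cKO) of the clock gene Bmal1 labelled Gfap-Bmal1 cKO, and had eaten a standard diet (SD) or a high fat diet (HFD) for 16 weeks. The 8 groups are therefore control SD, cKO SD, control HFD and cKO HFD in each tissue, with 3 arrays in each. Gfap is a gene of astrocytes, and a bulk sample also holds other cells. Which cells had lost Bmal1 was not tested. The sources used here do not give strain, age, sex, the part of the gene deleted or the hour of harvest. Whether each array is a separate animal is not stated, and p-values therefore measure spread among arrays that may be technical.

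Endothelial cells hold together through junction proteins such as VE-cadherin (Cdh5) and claudin 5 (Cldn5), and grow and survive on signals through the VEGF and angiopoietin receptors. Their form differs between organs: capillaries of the brain are sealed by tight junctions and carry transporters that make up the blood-brain barrier, whereas those of brown fat pass fatty acids and glucose to adipocytes that burn them for heat. Pericytes sit on capillaries, and smooth muscle cells surround larger vessels and set their width.

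Upstream sequences are shown for 3 members on which the results turn: Eng, higher in BAT of controls on HFD; Cldn5, higher in the same arrays and with no called difference between tissues; and Slco1a4, the member called higher in the VMH. Each is the 250 bases before the start that RefSeq's promoter table uses in GRCm38.p6; for Slco1a4 that start lies inside the annotated gene, and 64 of the bases overlap it. The sequences are written 5′ to 3′ on the strand of the gene, with capitals for the letters AGGAAG or their reverse complement CTTCCT, which hold a core bound by ETS factors such as ERG, itself a member.
Eng, chr2:32646345-32646594, plus strand: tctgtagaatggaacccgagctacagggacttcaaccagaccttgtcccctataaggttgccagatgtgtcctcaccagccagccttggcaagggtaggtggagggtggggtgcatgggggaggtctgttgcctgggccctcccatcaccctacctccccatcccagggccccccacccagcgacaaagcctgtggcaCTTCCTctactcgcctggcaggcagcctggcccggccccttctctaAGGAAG
Cldn5, chr16:18776597-18776846, plus strand: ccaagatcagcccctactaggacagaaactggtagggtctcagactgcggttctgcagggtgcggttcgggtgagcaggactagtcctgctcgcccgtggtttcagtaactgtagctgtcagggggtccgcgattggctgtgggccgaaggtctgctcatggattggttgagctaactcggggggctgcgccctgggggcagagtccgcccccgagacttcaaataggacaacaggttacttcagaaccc
Slco1a4, chr6:141856221-141856470, minus strand: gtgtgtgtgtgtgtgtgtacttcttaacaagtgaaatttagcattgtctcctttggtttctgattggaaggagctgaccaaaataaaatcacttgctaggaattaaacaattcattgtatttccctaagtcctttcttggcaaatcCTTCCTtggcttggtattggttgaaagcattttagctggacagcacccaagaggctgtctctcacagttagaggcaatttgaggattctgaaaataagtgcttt

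The window of Eng held 2 matches, whose first bases lie 52 and 6 bases before the start used, and that of Slco1a4 held 1, at 104 bases before the start used. The window of Cldn5 held none. The letters were found on either strand in 10 of the 19 members listed among the RefSeq promoters (52.6%), against 32.3% of the 27025 genes and 29.5% of the 32851 windows of that length. The serum response factor box named CArG was found in none of the 19 and in 1.47% of windows. At so low a share, none of 19 says little. Of the smooth muscle members Acta2 was among the 19, and Tagln and Myh11 were not. A match in a window describes its letters and is no evidence of binding.

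Arntl, the gene of BMAL1, had a log2 signal of 8.62 ± 0.16 in control and 9.17 ± 0.21 in cKO arrays of VMH on SD, and of 8.95 ± 0.23 and 9.19 ± 0.30 on HFD (SD, n = 3), and was thus no lower under the cKO label. In BAT the means were 6.0 and 6.40 on SD and 6.46 and 6.80 on HFD. The groups are called by their labels throughout. The tissue labels fit their defining genes: Fezf1, a factor of VMH neurons, ranged from 14.56 to 15.60 over VMH arrays and from 3.27 to 3.58 over BAT arrays, whereas Ucp1, the uncoupling protein of brown adipocytes, ranged from 3.67 to 4.18 over VMH arrays and reached 19.93, the ceiling of the table, in BAT. The BAT arrays differed in their content of muscle: the mean log2 signal of 12 skeletal muscle genes was 17.84, 6.21 and 16.85 in control SD arrays, 15.09, 17.64 and 17.02 in cKO SD, 7.45, 6.26 and 10.14 in control HFD, and 6.24, 10.98 and 13.39 in cKO HFD. Control SD array 1 and cKO SD array 2 also had the lowest mean of 10 brown adipocyte genes, at 9.38 and 10.75, and Ucp1 was 8.87 in the former. In VMH, array 2 of cKO HFD had a mean of 10.78 over 6 pituitary genes, against 4.93 to 5.69 in the other 11 arrays. These differences in composition move with some results below and are given beside them.

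Most vessel genes had higher signals in BAT than in VMH, and Slco1a4 was a large exception. Array medians differ between the tissues, so each array was first centred on its own median over features with 1 symbol, which shifted the tissue difference of every gene by 1.36, and limma tested the mean of the 4 differences within genotype and diet. Of the members, 21 were above the filter in both tissues. At an adjusted p under 0.05 and a difference of at least 1, 18 of these were higher in BAT and 0 in the VMH, where 34.4% and 14.3% of the 13993 genes above both filters were. Their median difference was 3.34 on the log2 scale, against 0.45 for those genes. The other 14 entered through the tissue in which they were high, so their direction is a description only: with them 31 of 35 were called higher in BAT and 1, Slco1a4, in the VMH (33.8% and 19% of all 19342 genes tested). In bulk tissue, fewer vessel cells and less RNA in each cell cannot be told apart. On the values as deposited, without centring, 24 of 35 members were higher in BAT and 3 in the VMH, where 12.1% and 46.7% of all genes were. Pdgfrb, Nos3, Ly6c1, Icam2 and Ramp2 stayed positive as deposited but fell short of a difference of 1 (0.734, 0.717, 0.358, 0.218 and 0.103). For a member below the filter in 1 tissue, the difference is given as at least the distance from its mean to that filter. This bound holds on the centred scale only. The differences as deposited of those higher in BAT fell below it, as for Plvap (1.03 against a bound of 1.54).

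Among junction and surface genes above both filters, 5 of 6 were higher in BAT. Cdh5, the adhesion molecule of endothelial junctions, had the largest difference of the 21 members above both filters: its centred log2 signal was 7.32 ± 1.02 in BAT and 1.21 ± 0.19 in VMH (SD over 12 arrays), which differ by 6.10 ± 0.18 (SE) or 68.7-fold, with a limma adjusted p of 5.48e-17. Emcn, the sialomucin endomucin of capillaries and veins, differed by 4.38 ± 0.16, and the platelet endothelial adhesion molecule Pecam1 by 3.96 ± 0.11. Cldn5, the chief tight junction protein of brain endothelium, had no such excess when averaged over genotype and diet. Its centred signal was 1.58 ± 0.81 in BAT and 1.5 ± 0.18 in VMH, with a range of 0.81 to 3.38 in BAT that spanned that of VMH. The difference of 0.08 ± 0.11 had an adjusted p of 0.479 and lay between 0.0114 and 0.169 when single arrays were left out (adjusted p 0.0695 to 0.91). It was -1.27 on the values as deposited, -0.143 with a pseudocount of 16 and -0.017 with array weights. The groups behind this average were unlike. As deposited, the Cldn5 means of control SD, cKO SD and cKO HFD were 5.64, 5.50 and 5.74 in BAT. The matching VMH means were 7.35, 7.13 and 7.32. In control HFD the means were 7.22 in BAT and 7.38 in VMH. These means are not centred. Centring moves each of these tissue differences up by about 1.36, so control HFD was then higher in BAT and the other groups slightly lower. The small average therefore does not show an equal signal in each group.

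Of 5 receptors and ligands of vascular growth above both filters, 4 were higher in BAT. Kdr, the main VEGF receptor of endothelium, differed by 5.33 ± 0.21, Tek, the angiopoietin receptor, by 4.01 ± 0.12, and the decoy and signalling VEGF receptor Flt1 by 2.63 ± 0.12. Apln, the peptide ligand made by tip cells and neurons, differed by -0.46 ± 0.09, short of the size required, while its receptor Aplnr was higher in BAT by at least 2.69. Apln was -1.82 as deposited, where it was called higher in the VMH. The transcription factor Erg differed by 2.90, and Sox17 and Sox18 by at least 0.84 and 1.76. Vwf, the clotting factor stored in endothelial granules, differed by 1.33. Its VMH mean of 5.52 was barely above the filter of 5.51, so the size is little better than a bound. Nos3, the nitric oxide synthase of endothelium, and Ramp2, a subunit of the adrenomedullin receptor, differed by at least 2.04 and 1.38. As deposited, Sox17 and Vwf had the other sign (-0.29 and -0.0281).

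Slco1a4, an organic anion transporter of the blood-brain barrier, lay on the other side. It was between 10.85 and 11.50 on the deposited scale in the 12 VMH arrays and between 3.50 and 3.83 in BAT, with no overlap. BAT was below the filter, so Slco1a4 was higher in the VMH by at least 5.76 on the centred scale. Ly6c1, a surface protein of capillaries abundant in brain, was 1.71 ± 0.16 higher in BAT, but 0.358 higher as deposited, without a call. Gpihbp1, which carries lipoprotein lipase across capillaries of fat and muscle, was 4.27 ± 0.13 higher in BAT, and Plvap, the protein of fenestral and vesicle diaphragms, at least 1.54.

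Of the mural genes above both filters, 3 of 4 pericyte and 2 of 2 smooth muscle genes were higher in BAT. Abcc9 and Kcnj8, subunits of the potassium channel of pericytes and smooth muscle, differed by 5.78 ± 0.31 and by at least 2.46, and Rgs5, a regulator of G protein signalling used as a pericyte marker, by 5.75 ± 0.15. Pdgfrb, the PDGF receptor through which pericytes are recruited, differed by 2.09, and the contractile genes Acta2 and Myh11 by 3.34 and 2.72, and Tagln by at least 2.62. Notch3, the Notch receptor of mural cells, came to 0.98 ± 0.03, just under the size required, and to -0.378 as deposited. Skeletal muscle also makes Abcc9, whose BAT values are set beside the muscle genes below.

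**Figure D1:**
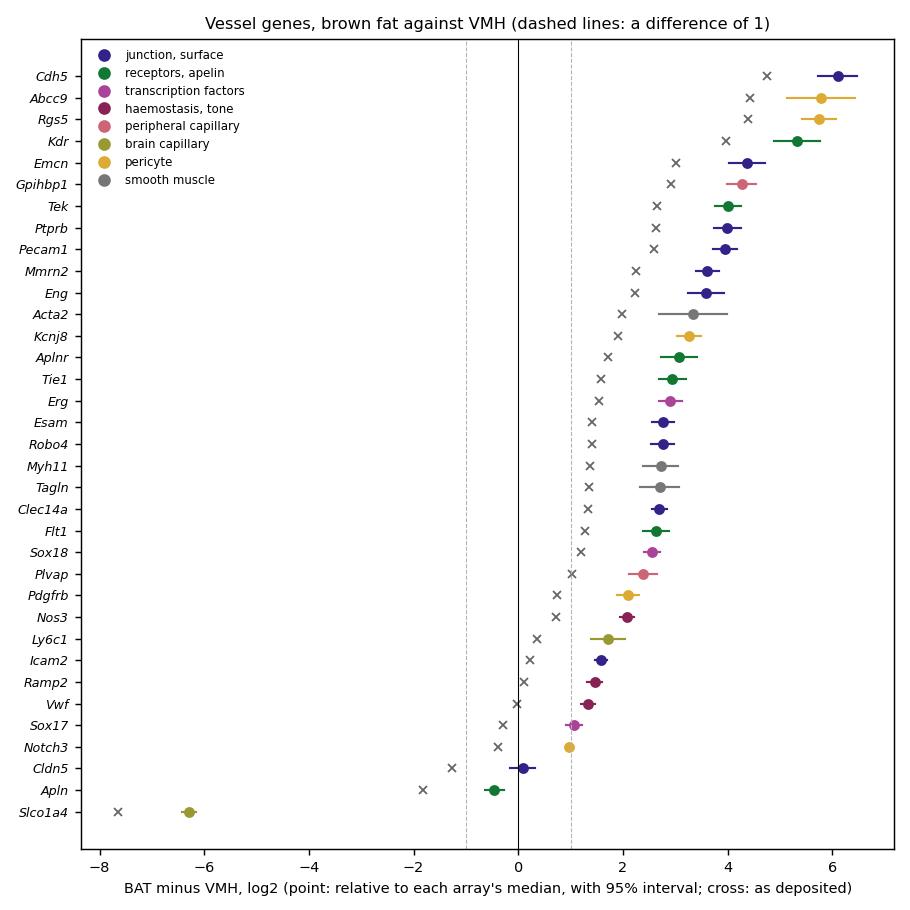
Difference between BAT and VMH for 35 vessel genes on the log2 scale, each point relative to the array medians with its 95% interval (n = 12 arrays a tissue) and each cross the same difference as deposited; colours give the role. Of the 35 points, 31 lie above 1, and those of Cldn5 and Apln lie at 0.08 and -0.46, with crosses at -1.27 and -1.82. In all, 14 points, Slco1a4 at -6.29 among them, belong to genes below the filter in 1 tissue. For these the text gives lower bounds.

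Genes outside the set, linked to vessels but not all confined to them, were counted from lists by role. Which cells of the bulk samples gave their signal was not tested. Of 9 blood-brain barrier genes above both filters, 4 were lower and 3 higher in BAT: the lysolipid transporter Mfsd2a differed by -4.12 ± 0.23 and the glucose transporter Slc2a1 by -3.35 ± 0.12, while the lactate transporter Slc16a1, which brown adipocytes also make, was 5.97 ± 0.38 higher. The thyroid hormone transporter Slco1c1, below the filter in BAT, was higher in the VMH by at least 4.08. All 7 peripheral capillary genes above both filters were higher in BAT, among them Tcf15, a factor of fatty acid handling endothelium (2.55 ± 0.07); its partner Meox2 was higher by at least 2.48. Fabp4, which adipocytes also express, was below the filter in VMH and within 0.005 of the ceiling of the table on 9 of 12 BAT arrays, so no size is given for it. Of 19 genes of vascular growth signalling above both filters, 13 were higher in BAT and 1 lower: Vegfa differed by 4.73 ± 0.11 and Vegfb by 3.91 ± 0.15, and Hey1 by -3.03 ± 0.20.

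Arrays of one group spread more in BAT than in VMH. The median within-group SD of the members was 0.132 in VMH, where all tested genes had 0.119, and 0.394 in BAT, where all had 0.234. Notch3 varied least in both (0.0392 and 0.0859), whereas Acta2 varied most in VMH (0.441) and Abcc9 in BAT (1.13).

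The BAT arrays of controls on HFD stood out for endothelial genes. In HFD minus SD among controls, 3 of 34 members passed an adjusted p of 0.05, all higher on HFD, where 0.771% of all 17124 genes were called in either direction and 0.625% higher. Of the members, 28 had a positive difference against 56.4% of all genes, with a median of 0.81 against 0.05, and 24 reached an unadjusted p under 0.05, against 23% of all genes. In 17 members all HFD arrays exceeded all SD arrays, which held for 14.3% of all genes, and in 1, Plvap, all were lower, against 10.8%.

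Pecam1 was 8.61, 9.24 and 8.49 in control SD arrays and 10.31, 11.05 and 9.85 in control HFD arrays. Every HFD array was above every SD array, and the rise was 1.62 ± 0.29 on the log2 scale, or 3.08-fold (SE; 95% interval 0.98 to 2.26; limma adjusted p = 0.0384). Eng, the TGF-β co-receptor endoglin of proliferating endothelium, was 7.81, 9.59 and 8.30 on SD and 10.69, 11.73 and 10.63 on HFD. Its groups did not overlap either, and it rose by 2.45 ± 0.44, or 5.46-fold (adjusted p = 0.0411). Cldn5 was 5.91, 5.74 and 5.28 on SD and 7.32, 7.81 and 6.52 on HFD, a rise of 1.58 ± 0.29, or 2.98-fold (adjusted p = 0.0425).

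These 3 calls depended on single arrays. Each ended when any of 9 of the 12 BAT arrays was left out. Without control SD array 2, 21 members were called, 20 of them higher, but so were 15.9% of all genes, 9.12% higher. Without cKO SD array 1, 3 members and 1.28% of all genes were called, and without control HFD array 3, 3 members and 0.514%. Over 23 alternative settings the adjusted p ranged from 0.0131 to 0.503 for Pecam1, from 0.00898 to 0.49 for Eng and from 0.0182 to 0.45 for Cldn5, and the differences stayed positive (1.16 to 1.90, 1.42 to 2.96 and 1.28 to 1.92).

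The junction and surface genes of BAT lay on 1 side. All 11 had positive differences in controls, 3 passed the test and 8 did not, and 11 reached an unadjusted p under 0.05 (23% of all genes). Cdh5 was 10.90, 12.25 and 10.86 on SD and 12.97, 14.10 and 12.40 on HFD, a difference of 1.82 ± 0.47 with non-overlapping arrays (adjusted p = 0.0926). Mmrn2 and Clec14a, which bind each other on endothelium, differed by 1.08 ± 0.27 and 0.80 ± 0.17, and Icam2, an adhesion molecule for leukocytes, by 0.42 ± 0.13. Control SD array 2, which was low in muscle genes, had the highest SD value of Pecam1, Eng, Cdh5, Esam, Emcn, Robo4, Clec14a, Mmrn2 and Ptprb.

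Among receptors, Kdr was 10.12, 12.37 and 10.40 on SD and 12.69, 13.86 and 12.83 on HFD. The groups did not overlap, although array 2 of SD came close to the lowest HFD array, and the difference was 2.16 ± 0.57 (adjusted p = 0.0942). Tie1, the orphan partner of the angiopoietin receptor, differed by 1.25 ± 0.33 and Aplnr by 1.5 ± 0.45, the latter with overlapping arrays. Apln itself differed by 0.01 ± 0.20. The transcription factors Erg, Sox17 and Sox18 had differences of 0.72, 0.44 and 0.82, and Gpihbp1 and Ly6c1 of 1.24 and 1.32. Vwf, Nos3 and Ramp2 stayed closer to 0, at 0.18, -0.07 and 0.37.

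Mural genes divided. Of the 5 pericyte genes, Kcnj8, Pdgfrb, Rgs5 and Notch3 had positive differences in controls of 0.88, 0.58, 0.51 and 0.24. Abcc9, also a pericyte gene, had a negative one of -1.67 ± 0.84. The smooth muscle genes Acta2, Myh11 and Tagln had negative ones of -1.19 ± 0.79, -0.69 ± 0.42 and -0.45 ± 0.45. No mural gene passed the test. Acta2 was 11.33, 8.01 and 9.02 on SD and 8.31, 7.87 and 8.62 on HFD, so its SD arrays alone spread over more than the difference.

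**Figure D2:**
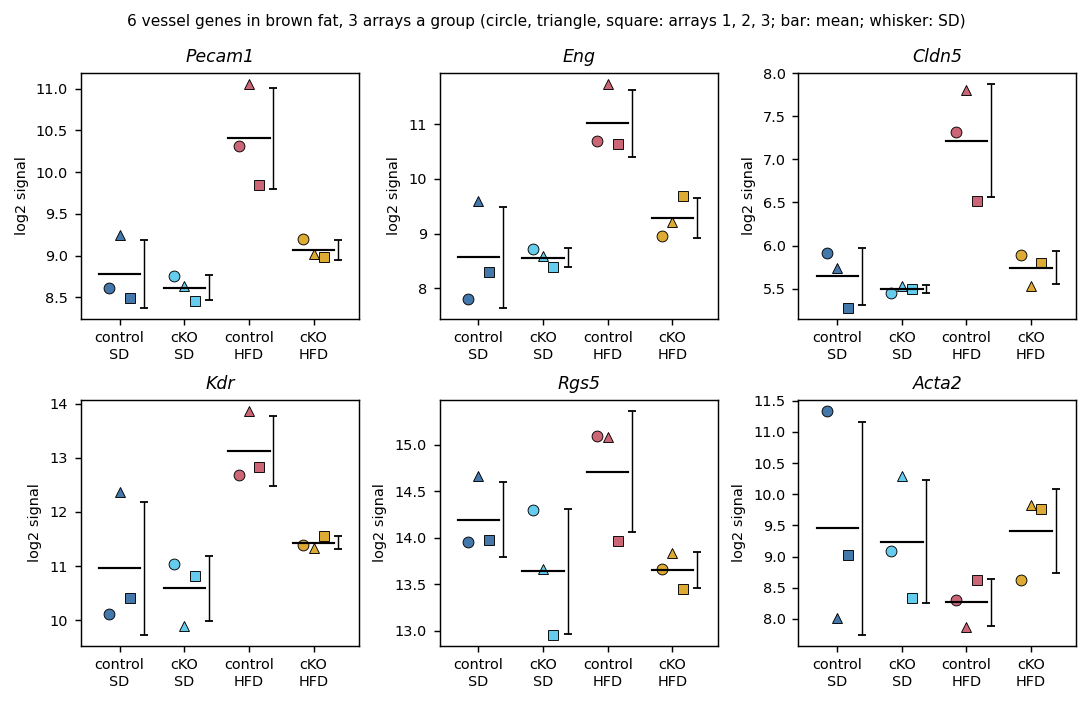
Log2 signal of 6 vessel genes in BAT (y axis) for the 4 groups (x axis), 1 symbol an array, with the mean as a bar and the SD as a whisker (n = 3). Control HFD arrays lie above all others for Pecam1, Eng, Cldn5 and Kdr, overlap them for Rgs5 and lie at the lower end for Acta2.

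Set against all 9 other BAT arrays, the 3 control HFD arrays were higher than every one in 15 of 34 members and lower than every one in 1, shares that all genes reached in 4.81% and 2.39% of cases. The 15 were Pecam1, Eng, Cldn5, Cdh5, Esam, Icam2, Emcn, Clec14a, Mmrn2, Kdr, Tie1, Sox18, Gpihbp1, Notch3 and Kcnj8, and the one below was Plvap. For Cldn5 the lowest control HFD array was 6.52 and the highest of the 9 others 5.91. For Notch3 these were 6.1427 and 6.1403, so it was barely apart. Plvap ran from 5.25 to 5.41 in control HFD arrays and from 5.44 to 6.64 elsewhere.

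In cKO minus control on HFD, which shares the control HFD arrays with the diet comparison in controls, limma called 0 of 34 members and 0% of all genes, while 19 members and 8.26% of all genes had an unadjusted p under 0.05. The members' median was -0.70, against -0.02 for all genes. In 22 members every cKO array was below every control array and in 3 every one was above, where 12.5% and 7.33% of all genes were. With array weights, whose estimation stopped before it converged, 8 members passed, all lower (Cdh5, Cldn5, Eng, Icam2, Kcnj8, Pecam1, Ptprb and Sox18), as did 1.12% of all genes, 0.806% lower. Without control HFD array 3, Cldn5 was the member called, with 0.0934% of all genes.

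Sox18, a SOX factor of endothelial and lymphatic development, was 6.59, 6.85 and 6.25 in control and 5.36, 5.72 and 5.78 in cKO arrays on HFD. The groups were apart, by -0.94 ± 0.18 (limma unadjusted p = 0.000449, adjusted p = 0.48; adjusted p 0.0331 to 1 over 23 settings). Cldn5 was 5.89, 5.53 and 5.80 in cKO HFD arrays, all below the lowest control HFD array of 6.52, a difference of -1.47 ± 0.29. Pecam1 was 9.20, 9.02 and 8.98 in cKO HFD arrays, a difference of -1.33 ± 0.29. Side by side, Eng differed by 2.45 for diet in controls and by -1.73 for genotype on HFD, Cdh5 by 1.82 and -1.71, Kdr by 2.16 and -1.70, and Gpihbp1 by 1.24 and -1.29. Both columns of values take in the same 3 control HFD arrays, so they are not independent.

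All 5 pericyte genes had cKO arrays below control arrays on HFD, led by Rgs5 (-1.06 ± 0.39) and Kcnj8 (-0.75 ± 0.26). Smooth muscle genes lay on the other side. Myh11, the smooth muscle myosin, was 6.72, 6.16 and 6.89 in control and 7.17, 8.27 and 8.02 in cKO arrays, apart by 1.23 ± 0.42 (adjusted p = 0.55), and Acta2 differed by 1.15 ± 0.79 and Tagln by 0.38 ± 0.45. Plvap was 6.53, 5.56 and 5.45 in cKO HFD arrays, with array 1 far above the other two, and the difference from control HFD was 0.50 ± 0.33.

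In the arrays labelled cKO, HFD minus SD gave 0 calls among 34 members and 0% of all genes at an adjusted p under 0.05, with 1 member and 22.9% of all genes at an unadjusted p under 0.05. The median was 0.15. Abcc9 differed by -2.43 ± 0.84 (limma adjusted p = 0.15), Apln by -0.43 ± 0.20 and Emcn by 0.85 ± 0.44. The 3 genes that rose in controls differed here by 0.45 (Pecam1), 0.72 (Eng) and 0.25 (Cldn5). With array weights, again short of convergence, 17 of 34 members were called, 14 of them higher, as were 50.5% of all genes, 30.1% higher, a share of members near that of all genes.

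The difference between the diet responses was tested as the interaction, and it called 0 members and 0% of all genes, with 10 members and 3.79% of all genes at an unadjusted p under 0.05. It was negative in 30 of 34 members and positive in 47.6% of all genes, with a median of -0.56 over the members. Sox18 had -0.94 ± 0.26, Cldn5 -1.33 ± 0.41 and Clec14a -0.68 ± 0.23, each with a limma adjusted p of 1, so a difference in diet response between genotypes is not shown for these genes. On SD, cKO minus control gave 0 calls (0% of all genes) and 0 members at an unadjusted p under 0.05, against 3.56% of all genes, with a median of -0.05. The smallest p values there belonged to Vwf (0.34 ± 0.17), Rgs5 (-0.55 ± 0.39) and Kcnj8 (-0.33 ± 0.26). Averaged over diets, 0 members and 0% of all genes were called, 14 members and 8.73% of all genes had an unadjusted p under 0.05, and the smallest p values belonged to Cldn5 (-0.81 ± 0.20), Pecam1 (-0.75 ± 0.20) and Sox18 (-0.47 ± 0.13), each with an adjusted p of 0.547.

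**Figure D3:**
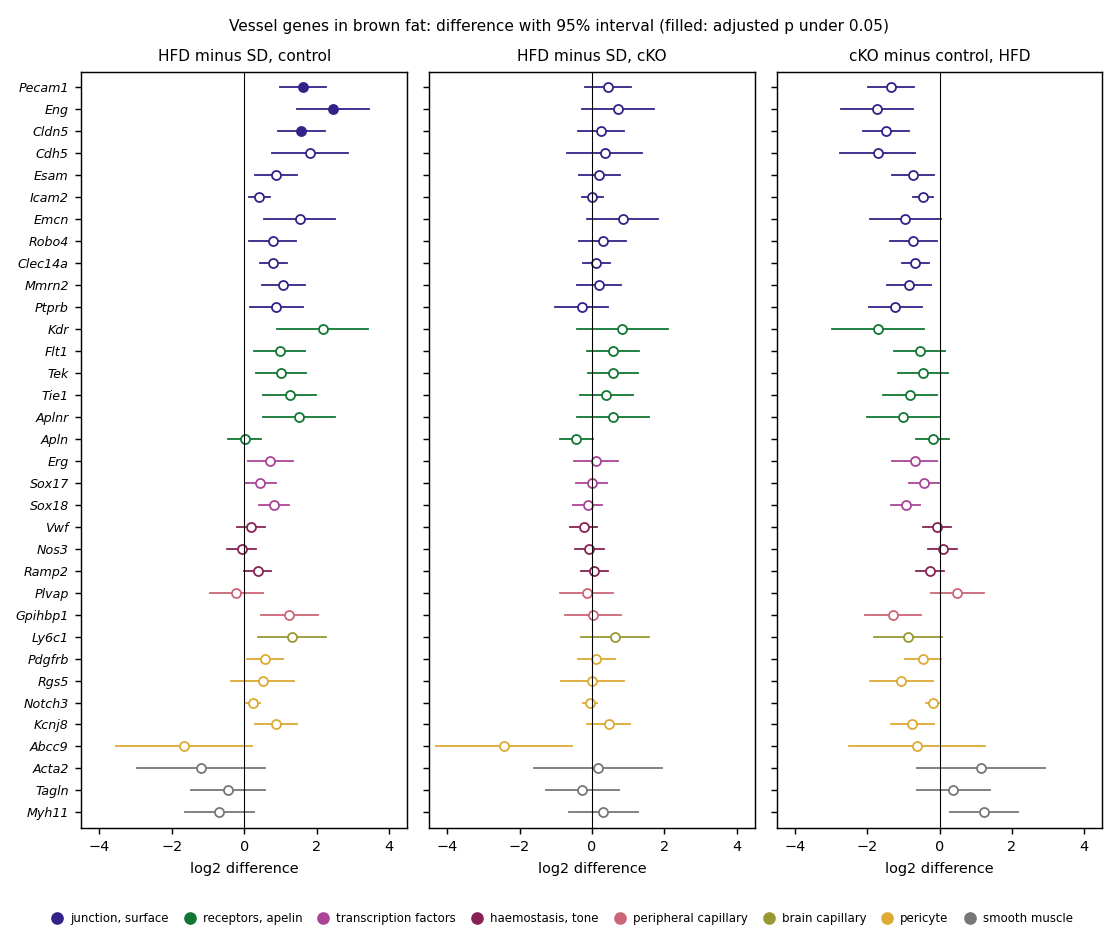
Log2 difference with 95% interval (x axis) for 34 vessel genes in BAT (y axis, coloured by role) in 3 comparisons, filled where the limma adjusted p was under 0.05. Only Pecam1, Eng and Cldn5 are filled, in HFD minus SD of controls; the left and right panels share the control HFD arrays.

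In BAT the group means of muscle genes were lower on HFD than on SD, although control arrays overlapped. Control SD array 2, with a muscle mean of 6.21, was below every control HFD array. All 12 muscle genes had negative differences for HFD in controls (median -6.0) and in cKO arrays (-6.83), and all 12 had positive ones for cKO minus control on HFD (2.26). With their mean as a covariate no member was called for diet in controls: Pecam1 came to 1.23 (limma adjusted p = 0.154), Eng to 1.92 (0.188) and Cldn5 to 1.39 (0.202), while the members' median went from 0.81 to 0.50, Kdr from 2.16 to 1.30 and Acta2 from -1.19 to -0.05. For cKO minus control on HFD the covariate left the median at -0.61 and Cldn5 at -1.4 (adjusted p = 0.5). For HFD minus SD in cKO it turned the median from 0.15 to -0.12. When the 5 BAT arrays with a muscle mean above 14 were left out, 1 control SD array remained, taken to vary like the rest, and Cldn5 differed by 1.47, Eng by 1.42 and Pecam1 by 1.16, with no call.

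Abcc9 was 13.95 and 13.84 in the 2 arrays richest in muscle genes (control SD array 1 and cKO SD array 2) and 10.53, 10.69 and 9.49 in the 3 with the lowest muscle means (control SD array 2, control HFD array 2 and cKO HFD array 1). The 6 fibroblast genes also had negative diet differences in controls (median -0.93, array means 9.28 to 12.76 in BAT), 9 of 10 brown adipocyte genes positive ones (1.06), and 9 of 10 macrophage genes positive ones (0.63), with Cd68 called (2.85 ± 0.42, adjusted p = 0.0335). Alas2, the haem synthesis enzyme of red cells and the 1 of 6 listed erythrocyte genes above the filter, was 6.42, 8.14 and 7.09 in control SD, 7.51, 7.49 and 8.51 in cKO SD, 8.0, 10.55 and 10.32 in control HFD and 10.97, 7.72 and 7.11 in cKO HFD arrays. Its groups on HFD overlapped, and it differed by 2.41 ± 1.01 for diet in controls (adjusted p = 0.198) and by -1.02 ± 1.01 for cKO minus control on HFD (adjusted p = 0.851), with no call. Their part in the vessel differences was not tested.

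**Figure D4:**
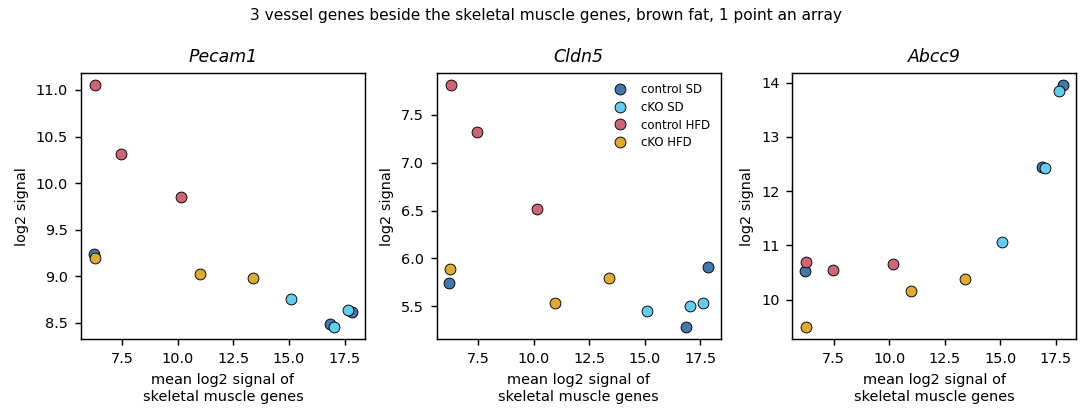
Log2 signal of Pecam1, Cldn5 and Abcc9 (y axes) against the mean log2 signal of 12 skeletal muscle genes (x axis) in the 12 BAT arrays, coloured by group. Control HFD arrays (muscle mean 6.26 to 10.14) lie above all others for Pecam1 and Cldn5, and Abcc9 is highest in the arrays richest in muscle genes.

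Other vascular genes of BAT were counted from the same lists. For diet in controls, 1 of 21 growth signalling genes was called, where 0.771% of all genes were. It was Pdgfb, the ligand by which endothelium recruits pericytes. Pdgfb was 5.55, 5.91 and 5.26 on SD and 6.42, 6.54 and 6.34 on HFD. It rose by 0.86 ± 0.15 (limma adjusted p = 0.0382, with 0.00898 to 0.381 over 23 settings, of which 7 kept the call). Efnb2, the ephrin of arterial endothelium, and its receptor Ephb4 differed by 1.15 and 0.71 without a call. In cKO minus control on HFD, Pdgfb (-0.92 ± 0.15) had an adjusted p of 0.385. None of 12 peripheral capillary genes was called for diet in controls, though 11 were positive, among them Car4 (1.53 ± 0.38) and Cd300lg (1.56 ± 0.45).

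In the VMH no member was called in any of the 6 comparisons under any setting run. Of the members, 22 passed the filter there. In cKO minus control, limma called 0 of 22 on SD (0.271% of all 16211 genes), 0 on HFD (0.302%) and 0 averaged over diets (0.66%), with 1 member at an unadjusted p under 0.05 in each, against 6.71%, 11.3% and 11.5% of all genes. In HFD minus SD, 0 were called in controls (0% of all genes) and 0 in cKO arrays (0.00617%), with 0 and 2 members at an unadjusted p under 0.05, against 8.49% and 9.56% of all genes. The interaction gave 0 as well (0% of all genes), with 0 members at that p, against 5.62%. Medians lay between -0.10 and 0.03.

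Notch3 had the smallest p of the VMH members in 3 of these comparisons. It was 6.44, 6.46 and 6.48 in control SD, 6.59, 6.65 and 6.63 in cKO SD, 6.40, 6.34 and 6.42 in control HFD and 6.40, 6.38 and 6.49 in cKO HFD. The cKO SD arrays were above all 9 others, by 0.16 ± 0.05 from control SD (limma unadjusted p = 0.01, adjusted p = 0.565), and the difference for HFD in cKO arrays was -0.20 ± 0.05 (unadjusted p = 0.0027, adjusted p = 0.264). On HFD, Ptprb, the phosphatase VE-PTP that acts on VE-cadherin and TIE2, was 8.43, 8.52 and 8.28 in control and 8.01, 8.33 and 8.13 in cKO arrays, which overlap, a difference of -0.25 ± 0.11 (limma adjusted p = 0.412).

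The barrier genes among the members gave no call in VMH. Slco1a4 was 11.33 ± 0.22, 11.36 ± 0.16, 11.20 ± 0.12 and 11.08 ± 0.23 (SD, n = 3) in control SD, cKO SD, control HFD and cKO HFD arrays, and Cldn5 was 7.35 ± 0.11, 7.13 ± 0.19, 7.38 ± 0.08 and 7.32 ± 0.18. Cldn5 differed by -0.23 ± 0.11 between genotypes on SD. The 3 genes that rose with HFD in BAT of controls differed by 0.08 ± 0.10 (Pecam1), 0.12 ± 0.10 (Eng) and 0.03 ± 0.11 (Cldn5) in VMH. The smallest p values for diet in controls belonged to Flt1 (0.17 ± 0.08), Kdr (0.26 ± 0.12) and Rgs5 (0.25 ± 0.12), with limma adjusted p of 0.592, 0.608 and 0.615. Array 2 of cKO HFD, rich in pituitary genes, had an endothelial member mean of 6.39, within the range of 6.32 to 6.46 over all VMH arrays.

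**Figure D5:**
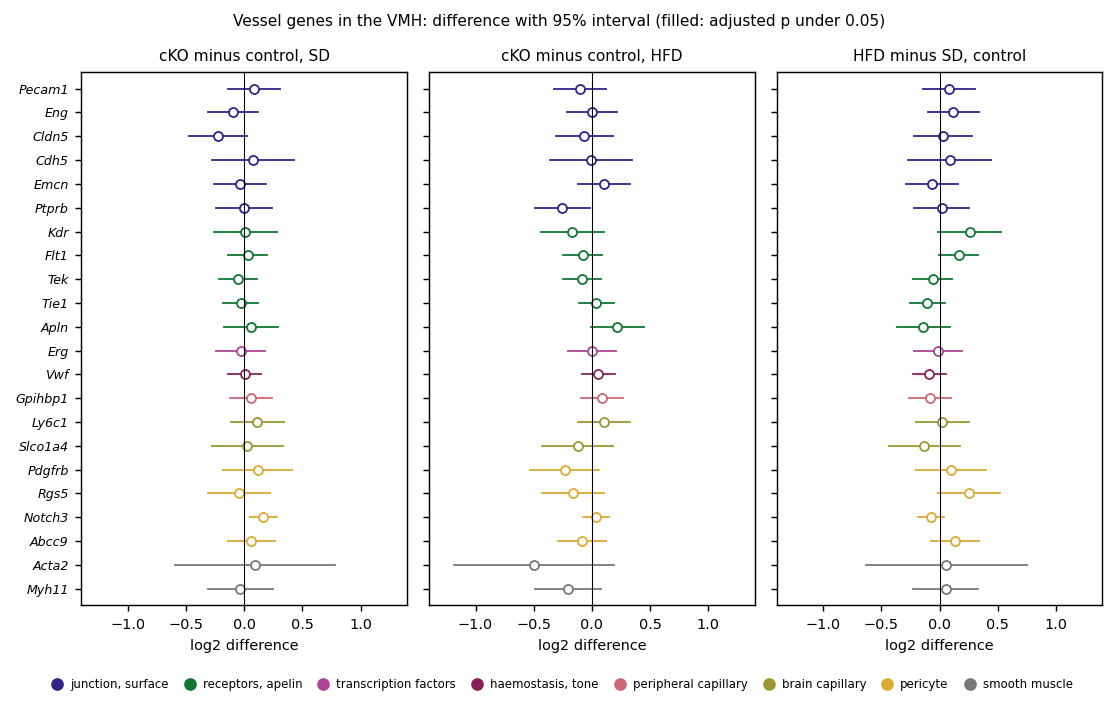
Log2 difference with 95% interval (x axis) for 22 vessel genes in VMH (y axis, coloured by role) in 3 comparisons, on a scale narrower than that used for BAT; none passed the limma adjusted p of 0.05. All differences lie between -0.50 (Acta2) and 0.26 (Kdr).

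Outside the set, Vcam1 and Mfsd2a are given because they were called between genotypes in VMH. Of all 16211 genes, 0.66% were called averaged over diets and 0.271% on SD. Vcam1, the adhesion receptor of activated endothelium, which other brain cells can also make, was 8.09, 8.32 and 8.42 in control SD, 9.16, 8.96 and 8.87 in cKO SD, 8.29, 7.96 and 8.08 in control HFD and 8.64, 8.77 and 8.98 in cKO HFD arrays. All 6 cKO arrays were above all 6 control arrays, and Vcam1 rose by 0.71 ± 0.09 averaged over diets (limma adjusted p = 0.00251; 0.00127 to 0.012 over 19 settings, all of which kept the call). It also passed on SD (0.72 ± 0.12, limma adjusted p = 0.0438, with 6 of 20 settings keeping that call). Vcam1 belongs to a list of 5 endothelial activation genes, of which Icam1 and Selp were below the filter in the VMH. Activation of endothelium was not tested. Mfsd2a, the lysolipid transporter of brain endothelium, was 10.65, 10.60 and 10.06 in control SD, 9.44, 9.79 and 9.85 in cKO SD, 10.66, 10.30 and 10.66 in control HFD and 9.83, 9.88 and 9.54 in cKO HFD arrays. All cKO arrays were below all control arrays, and it fell by 0.76 on the log2 scale (SE 0.12; adjusted p = 0.0159; 0.00362 to 0.06 over 19 settings, of which 15 kept the call). It was the only called gene among 15 of the blood-brain barrier, whose median was 0.05. The share of all genes whose 6 cKO arrays lay apart from all 6 control arrays was not counted.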

How the data were processed

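The 12 VMH and 12 BAT arrays were analysed from 1 table of log2 signals that the authors deposited, with values between 2.12 and 19.93. The submitters' processing notes name Expression Console 1.1.1 of Affymetrix and PLIER 2.0 without saying what each did. How arrays were normalized against each other, and on which genome build, is not given in the sources used here. Of 72688 features, 30604 had 1 gene symbol, 2146 had several and the rest none or were controls; 827 symbols were updated through a RefSeq gene table of GRCm38.p6, to which 22818 features matched. The brightest feature stood for a gene within a tissue. Tested genes had a mean in the tissue at or above the median feature's (5.51 in VMH, 4.13 in BAT), and between tissues where it did so in at least 1.

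Group means were fitted with limma 3.58.1 in R 4.3.3 over the 12 arrays of a tissue, or over the 24 centred arrays, with no block and equal weights. Two-sided p-values were corrected by the Benjamini-Hochberg method over all genes tested in a comparison, with a threshold of 0.05. With 3 arrays a group, precision is limited by their number. No pair of arrays was identical. The members, the role lists and the comparisons were chosen with earlier results of these data known. Named in full within a tissue are the members past the threshold or, where fewer than 3 passed, the 3 of smallest p; between tissues, the largest differences and all without a call; and up to 3 genes of a list by smallest p. Genes given beyond these were chosen for their role or after their values were seen. Alternatives were quantile normalization, a pseudocount of 16, averaged features, a robust trended prior, no filter, array weights, a replicate block, fits of only the groups compared, leaving out each array, the muscle mean as a covariate and, between tissues, values as deposited. Chosen after seeing the data were leaving out BAT arrays with a muscle mean above 14 or the 2 lowest in brown adipocyte genes. The procedure was tested on simulated data. For a log2 change of 1 in HFD minus SD of controls, it recovered 94 of 100 changed genes in VMH and 55 of 100 in BAT. A missing call in BAT therefore says less than one in VMH. RefSeq promoters were searched with Python 3.11.15.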

Additional observations from a re-analysis of the deposited data

Results flagged for a closer look

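In 4 cases the arrays of a member differed without overlap in opposite directions in the 2 tissues; the difference between tissues was not tested, and none of these differences passed the adjusted threshold in either tissue. Among the 13993 genes above the filter in both tissues, 2.24% did so for cKO minus control on HFD, against 3 of 21 members, and 2.19% for HFD minus SD in controls, against 1 of 21; cKO minus control on SD and HFD minus SD in cKO gave 0 of 21 each, where 0.364% and 2.26% of those genes did. On HFD, cKO minus control was 0.11 in VMH and -0.94 in BAT for Emcn, -0.5 and 1.15 for the smooth muscle actin Acta2, and -0.21 and 1.23 for the smooth muscle myosin Myh11. For HFD minus SD in controls, Notch3 differed by -0.07 in VMH and by 0.24 in BAT. Several of these separations were very narrow. In BAT the lowest control HFD array of Notch3 was 6.1427 and the highest other array 6.1403. On HFD, the lowest cKO and highest control arrays were 8.63 and 8.62 for Acta2 in BAT, and 6.87 and 6.85 for Emcn in VMH.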

How the results depend on the processing

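Counts of called members kept within 1.5 times their value in 290 recomputations and moved further in 22. Most within-tissue counts, and all of those in VMH, were 0 to begin with and mostly stayed 0. The first number therefore says little about stability. For HFD minus SD in BAT of controls, the 3 calls became 1 with quantile normalization and 1 with no filter, 0 with only the groups compared, 0 with array weights, 0 with the muscle covariate, 0 without the arrays high in muscle genes, 0 without those low in adipocyte genes, and 0 to 21 when single arrays were left out. For cKO minus control on HFD in BAT, 0 became 8 with array weights and 0 to 1 when single arrays were left out, and for HFD minus SD in cKO arrays of BAT, 0 became 17 with array weights, whose estimation stopped before it converged. In BAT minus VMH, 3 members were higher in the VMH as deposited in place of 1, and the sign turned for Cldn5 as deposited (-1.27), with a pseudocount of 16 (-0.143) and with array weights (-0.017), and as deposited for Notch3 (-0.378), Sox17 (-0.29) and Vwf (-0.0281). The cause of these changes was not tested. With the replicate block, 0 members were called for HFD minus SD in BAT of controls; the numbers did not pair the samples (correlations of same-numbered arrays from -0.35 to 0.28 in VMH and from -0.77 to 0.39 in BAT), and 3 of 12 VMH and 6 of 12 BAT arrays correlated best with their own number. Of single genes, 1809 recomputations kept direction and side of the threshold, 92 lost a call and 9 gained one. Members below the filter in VMH lie near the lower part of the signal range, where arrays resolve little.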
